A study of Saccharomyces cerevisiae with 2 samples.

Results

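The signal of DNA double strand breaks was examined at 7 budding yeast genes of deoxynucleotide synthesis and of the response to DNA damage, namely RNR1, RNR2, RNR3, RNR4, HUG1, DUN1 and RAD54. They were chosen by name, and the probes inside each gene and within 3 kb of it were taken, which gave 197 of the 41480 probes of the array, 46 of them inside the genes. These are 7 of the 5787 nuclear genes with at least 1 probe in the gene body. Upstream means the 5′ side and downstream the 3′ side, from the strand given by the systematic gene name.

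Ribonucleotide reductase makes the deoxynucleotides that replication forks consume. Its large subunit binds the substrates, and its small subunit carries an iron cofactor that generates the radical needed for catalysis, so the enzyme depends on iron. Hydroxyurea blocks the enzyme by quenching that radical. In budding yeast the kinase Mec1 answers stalled forks through Rad53 and Dun1, which raises transcription of most RNR genes and removes inhibitors of the enzyme. Break signal at these genes is a property of their DNA and states nothing about how far they were transcribed.

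Both cultures were the yeast strain WFA73 with the genotype mec1, a mutant of the checkpoint kinase; the labels name no other allele. Cells arrested in G1 with alpha factor were released into 200 mM hydroxyurea for 1 h, freed of the drug by filtration, and left to recover for 1 h. One culture recovered with 0.8 micromolar BPS, an iron chelator, and the other without it. In the Break-chip assay broken DNA ends are labelled with a fluorescent nucleotide and hybridised to a tiling array, here with recovery DNA in Cy3 against G1 DNA of the same strain in Cy5.

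There was 1 array with BPS and 1 without, so no difference between them could be checked against replicates and no p-value is given. Values are log2 ratios after subtraction of the array's own median over all probes, from median ratios of 1.23 with and 1.21 without BPS. Over all probes the SD of the log2 ratios was 0.86 with and 0.72 without BPS, so the array with BPS had the wider spread. Errors given as SD or SE are over probes and describe scatter within an array only. The noise of a single probe, estimated from differences between neighbouring probes, had a robust SD of 0.31 with and 0.27 without BPS. The ordinary SD gave 0.42 and 0.35. Which sample is the numerator is not stated in the labels or the table, and recovery over G1 was assumed. If it ran the other way, every sign below would turn. Each value is relative to all other probes of its array and to the G1 DNA on it. Positions are those printed in the deposited table, in kb, and a value or difference past 0.5 log2 units either way is called past the threshold.

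The first question was where the 7 genes stood in the break landscape of each recovery. DUN1 lay in a deep valley on both arrays. RAD54 lay above the genome median on both, with a lower gene body level with BPS. The 4 RNR gene bodies lay within the threshold of 0.5 on both arrays, the farthest from the median being RNR4 at −0.48 with BPS. That level passed the threshold after scaling by robust SD (−0.53) and with positions moved 0.5 kb higher (−0.67). With BPS, the mean gene body levels in descending order were 0.45 at RAD54, 0.10 at RNR2, −0.14 at RNR1, −0.22 at RNR3, −0.48 at RNR4, −0.82 at HUG1 and −1.05 at DUN1. Without BPS, they were 0.76 at RAD54, 0.09 at HUG1, 0.01 at RNR3, −0.02 at RNR1, −0.18 at RNR4, −0.35 at RNR2 and −0.98 at DUN1. With BPS no neighbouring pair in that order for which an SE could be had was apart by more than 2 SE. Without BPS only the step from RNR2 to DUN1 was, at 0.62 ± 0.13 (SE). HUG1 had 1 probe in its body and no SE, so its steps could not be judged. The genes on either side of HUG1 were therefore not compared, though their levels lay well apart. With BPS these were RNR4 at −0.48 ± 0.20 (SE) and DUN1 at −1.05 ± 0.09. Without BPS they were RAD54 at 0.76 ± 0.08 and RNR3 at 0.01 ± 0.20. For HUG1 itself the level also moved with position. Its 0.09 without BPS became −0.72 with positions moved 0.5 kb lower and −0.38 with positions moved 0.5 kb higher.

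With BPS, 2 of the 7 gene bodies (HUG1 and DUN1) were below −0.5 and none was above 0.5, against 27.6% and 28.5% of all genes. RAD54, at 0.45, lay just under 0.5 and passed it with the median over probes, with no centring, after scaling by robust SD and with positions 0.5 kb higher. Without BPS, DUN1 was below −0.5 and RAD54 above 0.5, against 25.1% and 26.9% of all genes. Counts this close to the background are no result about the 7 genes as a set.

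**Figure D1:**
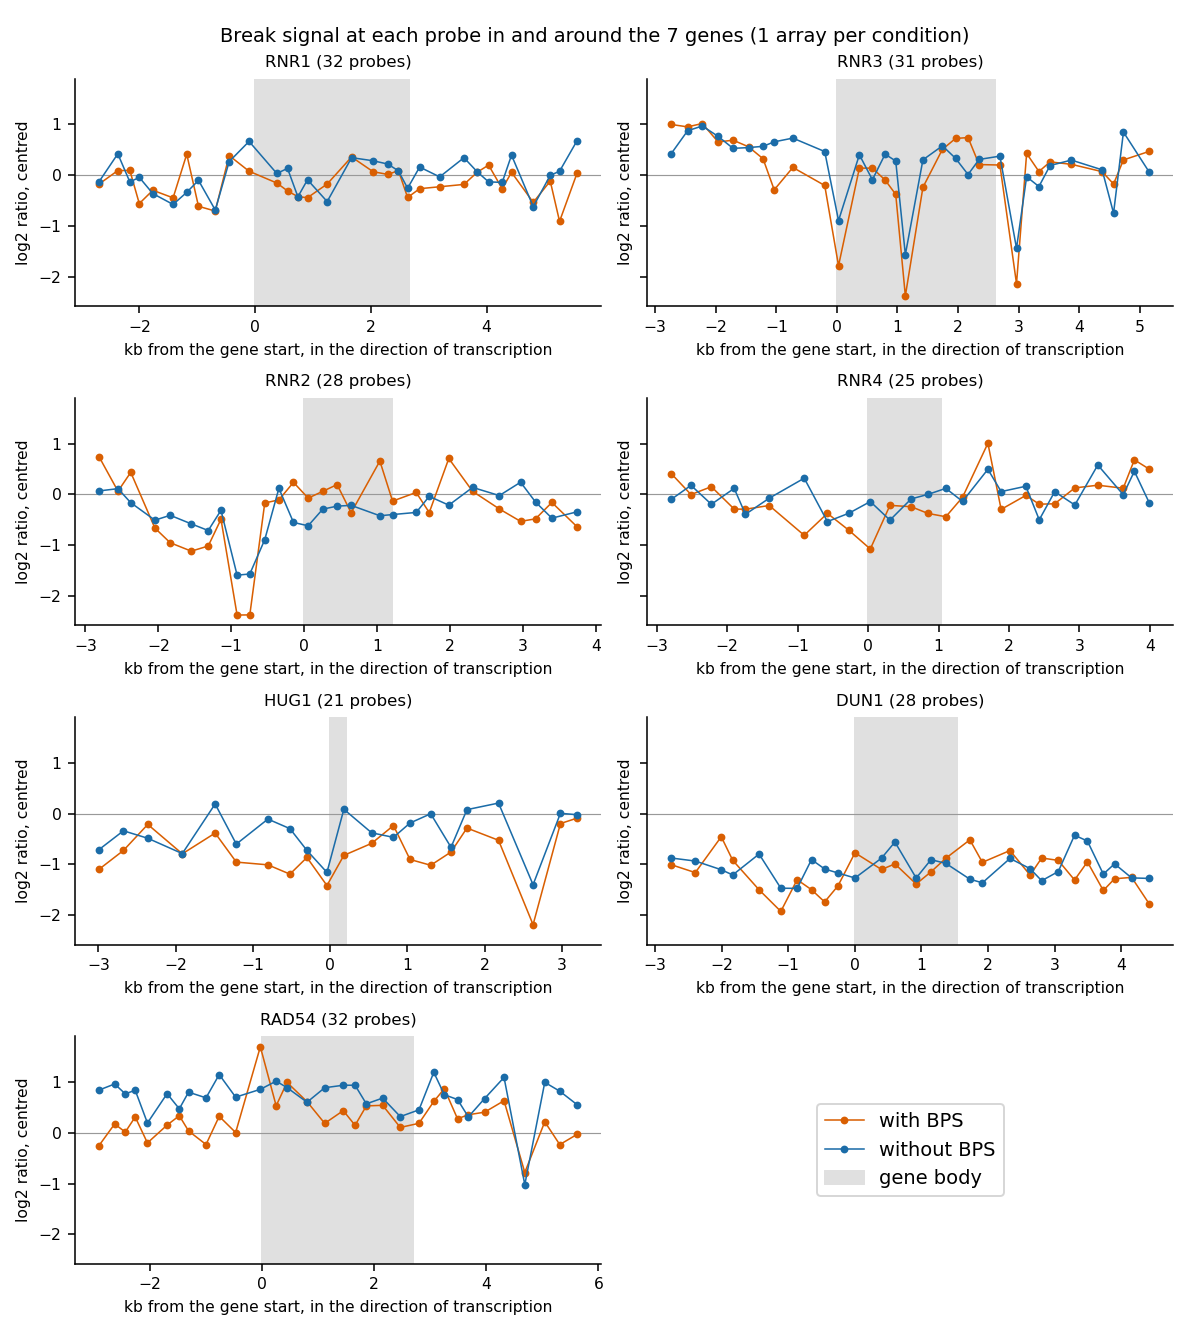
Centred log2 ratio of each probe (y axis) against its distance in kb from the gene start in the direction of transcription (x axis), with BPS in orange and without BPS in blue, and the gene body shaded. DUN1 is below 0 at all 28 probes on both arrays, RAD54 is above 0 at all 9 body probes, and steep lows of 1 or 2 probes stand in and beside RNR3 and upstream of RNR2.

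The second question was how the signal over the gene bodies differed between the recoveries with and without BPS. It was lower with BPS in 6 of the 7 gene bodies and higher only in RNR2, but most of these differences were small: 1 body (HUG1) was below −0.5, against 9.18% of all genes, and none was above 0.5, against 10.6%. At DUN1 the sign depended on scale, as its difference of −0.07 turned to 0.03 after division by the robust SD of each array and to 0.08 after quantile normalization. The median difference over the 7 was −0.23, against −0.03 over all genes, of which 53.0% were below 0. Over gene and flanks together again 6 of 7 were lower with BPS, with a median of −0.13 against −0.05 over all genes, of which 55.97% were below 0. With flanks of 5 kb it was 4 of 7, as RNR3 and RNR4 moved to 0.03 and 0.02. With flanks of 3 kb none passed −0.5 or 0.5, against 3.39% and 6.26% of all genes.

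**Figure D2:**
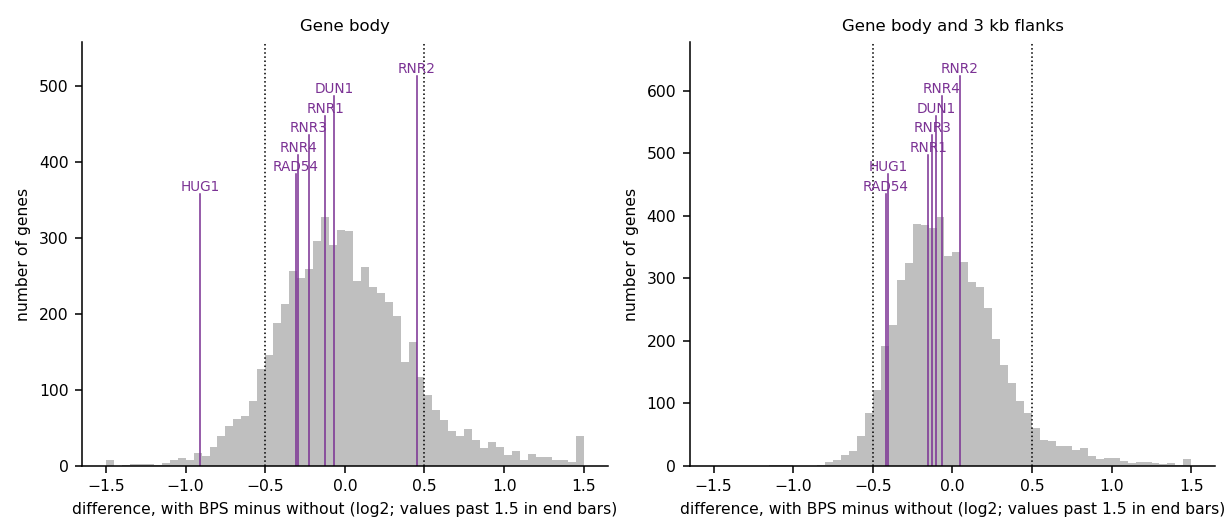
Histograms of the difference with BPS minus without BPS (x axis, log2) over 5787 genes (y axis, number of genes), for the gene body at left and for the body with its 3 kb flanks at right, with the 7 genes as labelled lines and the threshold of 0.5 dotted. HUG1 stands out at −0.91 for the body, while over the wider window RAD54 and HUG1 lie together at −0.42 and −0.40.

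Among the large subunits, RNR1 (chromosome V, body probes from 299.3 to 301.6 kb) encodes the main form, which is made in S phase. Its 10 body probes ran from −0.44 to 0.36 with a median of −0.16 with BPS, and from −0.52 to 0.35 with a median of 0.06 without BPS. The ranges overlap almost fully, and the mean difference was −0.12 ± 0.07 (SE), or 0.919-fold. RNR1 was level with its 3 kb flanks. With BPS the body exceeded the upstream flank by 0.02 and the downstream flank by 0.05, and without BPS the body differed from them by 0.07 and −0.09. The wider surroundings were higher, with a mean of 0.53 with and 0.51 without BPS within 25 kb of the gene. The upstream flank holds ARG56, an arginine biosynthesis gene, and the downstream flank TDA2, VTC1, which encodes a subunit of the vacuolar polyphosphate polymerase complex, and ALD5, a mitochondrial aldehyde dehydrogenase gene. ALD5 had −0.20 with and 0.21 without BPS, a difference of −0.41 ± 0.13 over 7 probes, the most negative among these neighbours.

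RNR3 (chromosome IX, 238.4 to 240.7 kb) encodes the second large subunit, which is nearly silent in unstressed cells and strongly induced by DNA damage. Its body level was −0.22 ± 1.00 (SD, 11 probes) with BPS and 0.01 ± 0.66 without BPS, the widest scatter on both arrays among the 6 gene bodies with more than 1 probe. Medians were 0.14 with and 0.30 without BPS, and 2 probes lay far below the rest. The probe at 239.6 kb had −2.38 with and −1.56 without BPS, and the probe at 240.7 kb, at the start of the gene, had −1.78 and −0.89. A further probe at 237.7 kb in the downstream flank had −2.14 and −1.44. The body difference was −0.23 ± 0.16 (SE) with all probes and −0.09 without these lows.

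Upstream of RNR3 the ground was higher. The upstream flank had a mean of 0.49 with and 0.65 without BPS, and body minus flank was −0.71 ± 0.34 (SE) with and −0.65 ± 0.21 without BPS. Below −0.5 for this contrast were 9.00% of all genes with and 5.28% without BPS. With the lows left out the contrasts were −0.29 with and −0.37 without BPS, no longer past the threshold, and with medians in place of means they were −0.47 and −0.31. With flanks of 1.5 kb they were −0.33 and −0.59. The body differed from the downstream flank by −0.19 with and 0.06 without BPS. The upstream neighbours were not alike: YRB2, a gene of nuclear transport, had 1.02 with and 0.72 without BPS, while FIS1, the mitochondrial fission gene next to RNR3, had −0.07 with and 0.69 without BPS, a difference of −0.76 ± 0.18 over 2 probes.

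Of the small subunits, RNR2 (chromosome X, 392.5 to 393.4 kb) encodes the one that binds iron and forms the radical. Alone among the 7, its body was higher with BPS. Its 5 probes with BPS ran from −0.36 to 0.66 with a median of 0.06, and without BPS from −0.62 to −0.22 with a median of −0.29. Of the 5 probes, 4 were higher with BPS, the ranges overlapped, and the mean difference was 0.45 ± 0.20 (SE), or 1.37-fold, just inside the threshold. It was at the 87.4th percentile of all genes. Across the alternatives it ran from 0.29 to 0.54, and it was past the threshold after scaling by robust SD. Averaged over the whole 3 kb flanks, the difference without that scaling was −0.06 ± 0.16 upstream and −0.02 ± 0.15 downstream. The first 1 kb downstream had 0.31, however. In the track averaged over 2 kb either side, the difference at the middle body probe was only 0.12. Mid-height here means midway between no difference and that value, not the highest point. The averaged difference kept at least mid-height from 392.5 to 394.7 kb, past the end of the gene.

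The RNR2 body stood above its upstream flank by 0.69 ± 0.32 (SE) with BPS and 0.18 ± 0.17 without. Above 0.5 for this contrast were 14.5% of all genes with and 7.29% without BPS. A trough between 390.4 and 391.7 kb made the upstream flank low. Its deepest probes, at 391.5 and 391.7 kb, had −2.38 and −2.37 with BPS, and −1.59 and −1.57 without. The probe in the tRNA gene EMT5 in that trough had −1.02 with and −0.71 without BPS. Without the deepest probes the body exceeded the flank by 0.37 with BPS and differed by −0.01 without, so the contrast with BPS was no longer past the threshold. A flank of 5 kb gave 0.23 and −0.03. Downstream lies RRN7, a gene for transcription of ribosomal DNA, and the body differed from that flank by 0.27 with and −0.19 without BPS.

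RNR4 (chromosome VII, 855.5 to 856.3 kb) encodes the partner of Rnr2, which lacks iron ligands but is needed for folding and cofactor assembly. Its 4 probes ran from −1.08 to −0.22 with BPS and from −0.51 to 0.00 without, with means of −0.48 and −0.18. With BPS 3 of 4 probes were lower, the ranges overlapped, and the mean difference was −0.29 ± 0.25 (SE). The mean differences of the 2 small subunit genes had opposite signs. That of RNR4 was little larger than its SE, with 1 probe at −0.93 and the others from −0.37 to 0.29. Before scaling by robust SD, neither gene passed the threshold. With BPS the RNR4 body was lower than the downstream flank, with a contrast of −0.60 ± 0.24, against −0.26 ± 0.14 without. Below −0.5 for this contrast were 11.3% of all genes with and 6.06% without BPS, and RNR4 alone among the 7 was there. That flank holds OKP1, a kinetochore gene, and PBP1, the yeast ataxin-2 relative, at 0.13 and 0.25 with and 0.05 and 0.03 without BPS. The median over probes gave a contrast of −0.36, and a flank of 1.5 kb gave −0.48. RNR4 differed from its upstream flank by −0.24 with and −0.07 without BPS.

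**Figure D3:**
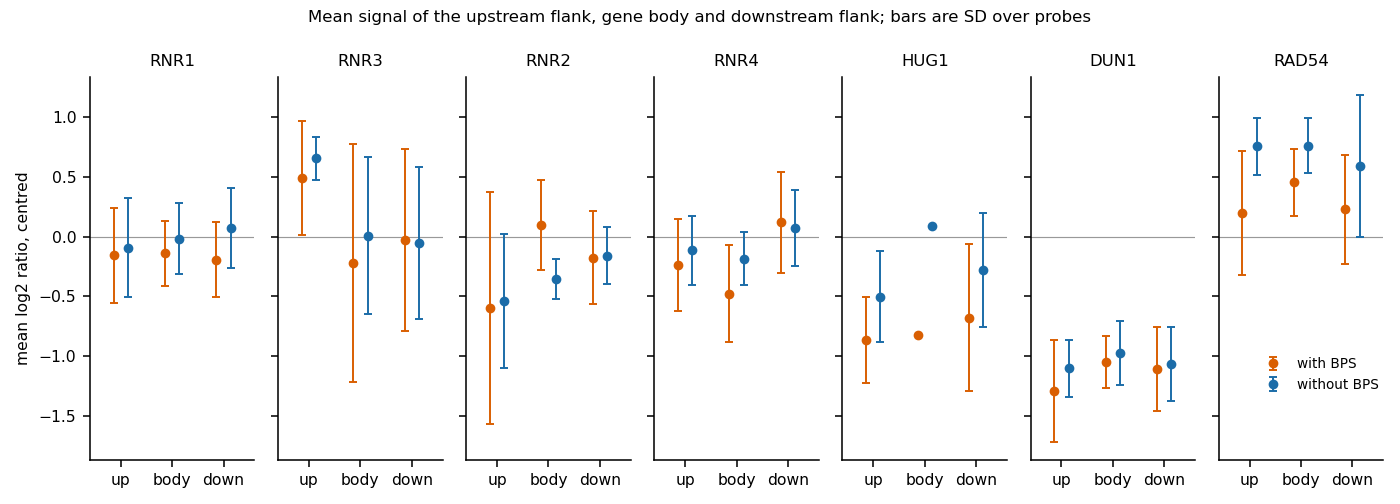
Mean centred log2 ratio (y axis) of the upstream flank, the gene body and the downstream flank of each gene, with BPS in orange and without BPS in blue, and bars giving the SD over probes. RNR3 and RNR2 differ most between body and upstream flank, DUN1 is low in all segments, and the 1 body probe of HUG1 has no bar.

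HUG1 (chromosome XIII) encodes a small inhibitor of ribonucleotide reductase and is among the genes most strongly induced by hydroxyurea. Its only body probe, at 158.9 kb, had −0.82 with and 0.09 without BPS, a difference of −0.91, or 0.533-fold, at the 1.03rd percentile of all genes. This value rests on 1 probe. Gene positions moved by 0.5 kb to lower or higher coordinates gave −0.14 and −0.21 at the probes then inside. The neighbourhood was nonetheless lower with BPS: 19 of the 21 probes from 155.8 to 162.0 kb were, and the window mean was −0.77 with and −0.37 without BPS, a difference of −0.40 ± 0.08 (SE), at the 8.44th percentile. The upstream flank had −0.36 ± 0.12 and the downstream flank −0.40 ± 0.13, so the lower signal was shared by both sides. In the track averaged over 2 kb either side, the difference was −0.48 at the body probe. It kept at least mid-height, as set by that value, from 155.6 to 163.3 kb, a stretch of 7.76 kb. The lower signal did not extend to the wider surroundings. Between 6.3 and 20.9 kb upstream the averaged track with BPS was the higher one. Within 10 kb of the gene the mean difference was −0.15. Within 25 kb it was −0.05, with means of 0.17 with and 0.22 without BPS.

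Without BPS the HUG1 probe exceeded the upstream flank by 0.59, past the threshold as in 7.29% of all genes, and the downstream flank by 0.37. With BPS these contrasts were 0.04 and −0.14. NTE1, a phospholipase gene upstream, had −0.80 with and −0.46 without BPS, a difference of −0.34 ± 0.09 over 18 probes. CMP2, a calcineurin subunit gene downstream, differed by −0.37 ± 0.13 over 6 probes. SML1, which encodes the main protein inhibitor of ribonucleotide reductase, is the next gene downstream. Its 1 probe had −0.24 with and −0.47 without BPS and was 1 of the 2 probes of the window that were higher with BPS. The window also held a narrow low at 161.4 kb, with −2.19 with and −1.40 without BPS.

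DUN1 (chromosome IV, 280.5 to 281.8 kb) encodes the kinase that passes the checkpoint signal from Rad53 to the RNR genes and to the inhibitors of the enzyme. Its 6 body probes ran from −1.39 to −0.77 with a median of −1.05 with BPS, and from −1.27 to −0.56 with a median of −0.94 without BPS. The ranges overlap, and the difference was −0.07 ± 0.13 (SE), a sign that other scalings turned. Its levels were at the 7.40th percentile of all genes with and the 5.37th without BPS. The flanks averaged −1.29 upstream and −1.11 downstream with BPS, and −1.10 and −1.06 without. Body and 3 kb flank differed by at most 0.25 on either array. The ground nearest the gene start was lower: with upstream flanks of 1.5 kb the body exceeded the flank by 0.52 with BPS, past the threshold, and by 0.17 without. All 28 probes of the window were below the genome median on both arrays. The 13 probes of POL3 downstream, which encodes the catalytic subunit of DNA polymerase delta, had a mean of −1.14 with and −1.05 without BPS, and GET3 upstream had −1.62 and −1.24.

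The valley of DUN1 was broad. The averaged track stayed below −0.5 from 268.8 to 309.8 kb with BPS, 40.9 kb wide, and from 265.1 to 305.9 kb without BPS, 40.8 kb wide. Runs at least as wide numbered 6 of 342 below −0.5 with BPS and 6 of 327 without. These are shares of runs, and the share of genes inside runs that wide is not given by them. Chromosome IV itself had a median of −0.15 with and −0.18 without BPS, so the valley was lower than its chromosome as well. Both edges lay at higher coordinates with BPS. The edges are crossings of −0.5 on 1 array each. Between the lower edges of the arrays the track with BPS lay from −0.45 to −0.28, so that edge depends on the threshold. Whether the valley moved was not tested.

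RAD54 (chromosome VII, 193.9 to 196.1 kb) encodes a Swi2/Snf2 translocase of recombinational repair, and is itself a damage-induced target of the checkpoint. Its 9 body probes ran from 0.11 to 0.99 with a median of 0.53 with BPS, and from 0.32 to 1.02 with a median of 0.89 without BPS. All were above the genome median on both arrays, 7 of the 9 were lower with BPS, and the difference was −0.31 ± 0.11 (SE), or 0.809-fold. Over the window of 32 probes, 26 were lower with BPS and the difference was −0.42 ± 0.07, at the 7.37th percentile of all genes. It was larger upstream, at −0.56 ± 0.15, than downstream, at −0.36 ± 0.12, though within the scatter of the probes. The exception upstream was the probe at 196.4 kb, next to the gene start, with 1.69 with and 0.86 without BPS; the other 11 upstream probes were lower with BPS. SUT1, a transcription factor gene upstream, had 0.08 with and 0.69 without BPS, a difference of −0.61 ± 0.09 over 4 probes.

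The body of RAD54 exceeded its upstream flank by 0.26 ± 0.18 (SE) with and 0.01 ± 0.10 without BPS, and its downstream flank by 0.23 and 0.17. Without BPS the averaged track stayed above 0.5 from 185.9 to 210.9 kb, 25 kb wide. Of 370 such runs, 11 were at least as wide. A wide run holds more genes than a narrow one, so this is not the share of genes in such runs. With BPS the averaged track lay between 0.42 and 0.55 at the probes of the RAD54 body, so the stretch of 0.41 kb that it spent above 0.5 is a width set by the threshold. The averaged difference was −0.24 at the middle body probe. It kept at least mid-height, as set by that value, from 179.4 to 202.4 kb, a stretch of 23.0 kb. The tracks were further apart elsewhere in that stretch, with 0.09 with and 0.75 without BPS at 2.3 kb upstream. Within 25 kb of the gene, however, the mean was 0.46 with and 0.41 without BPS, and further from the gene the track with BPS was mostly the higher one.

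**Figure D4:**
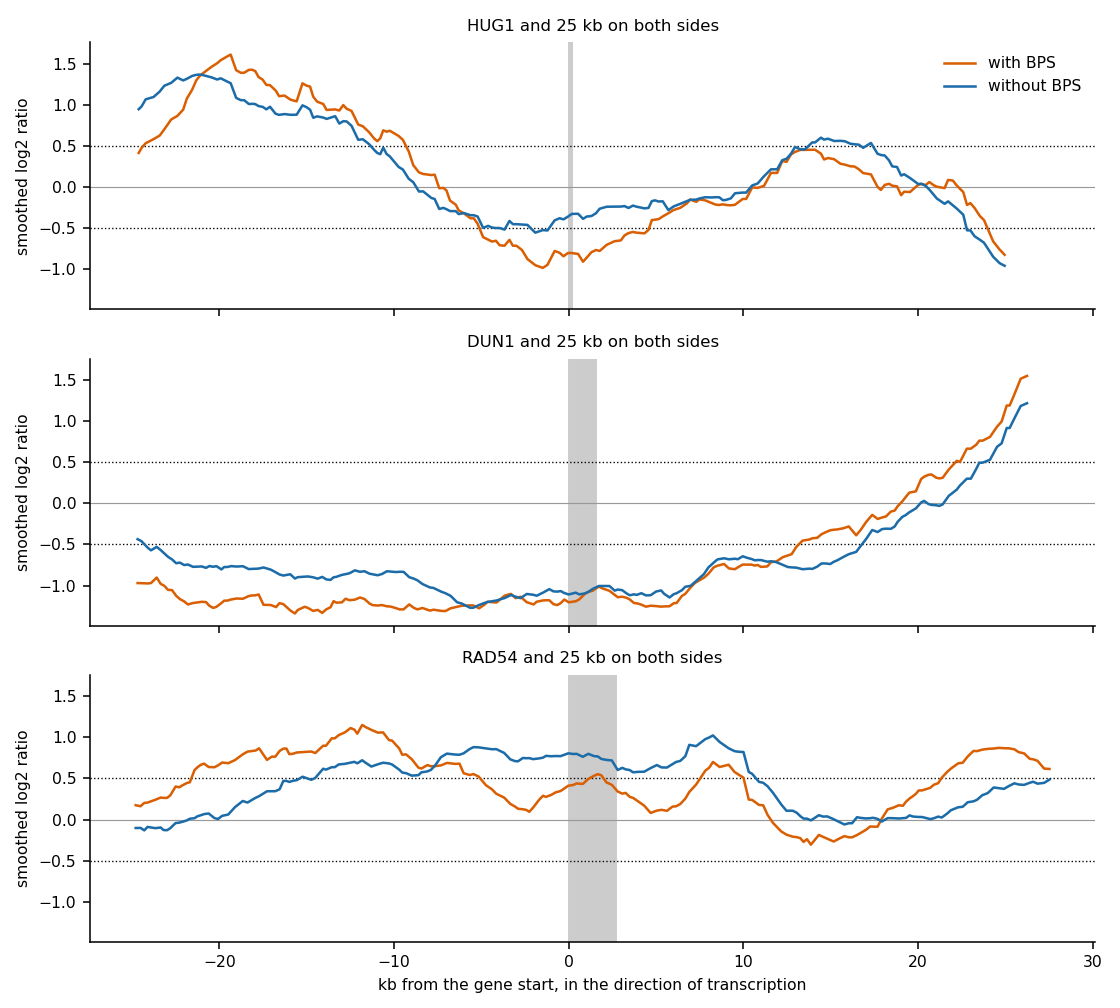
Log2 ratio averaged over the probes within 2 kb either side (y axis) against distance in kb from the gene start (x axis) for HUG1, DUN1 and RAD54, with BPS in orange and without BPS in blue, the gene shaded and levels of 0.5 and −0.5 dotted. Close to HUG1 and RAD54 the tracks separate, with BPS the lower one. Further from RAD54 the track with BPS is mostly the higher one, as it is from 6.3 to 20.9 kb upstream of HUG1. Both run near −1 at the DUN1 gene and part upstream of it, with −1.29 with and −0.83 without BPS at 9.5 kb.

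Set by role, the 2 large subunit genes and the 2 small subunit genes showed no common pattern between body and flanks. Body minus upstream flank was positive in 5 of the 7 genes on each array, with medians of 0.04 with and 0.07 without BPS, against 0.06 and 0.03 over all genes, of which 55.6% and 53.5% were positive. Body minus downstream flank was positive in 4 of 7 on each array, against 52.5% and 50.01% of all genes. No gene exceeded its downstream flank by more than 0.5 on the array with or without BPS, against 12.5% and 6.20% of all genes. In the first 1 kb upstream of the gene start the signal was lower than in the body in 6 of the 7 genes with BPS, RNR3 being the exception, and in 4 of 7 without. Over all genes this held for 60.4% with and 55.0% without BPS. This upstream stretch was below the body by more than 0.5 only in RNR2 (−1.05) with BPS, against 15.0% of all genes, and in RNR2 (−0.54) and HUG1 (−0.66) without, against 7.25%. It was above the body by more than 0.5 in none with BPS, against 6.03% of all genes, and in RNR3 (0.59) without, against 4.11%.

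The narrow lows were a feature of a few windows. A probe more than 1 log2 unit below the median of its window on both arrays occurred 7 times among the 197 probes (3.55%), against 1.37% of all probes. They were 3 at RNR3, 2 at RNR2, 1 at HUG1 and 1 at RAD54, and none was at RNR1, RNR4 or DUN1. No probe of the 7 windows was as far above its window median on both arrays, against 0.0362% of all probes. In deposited ratios, the 4 lowest of the RNR3 and RNR2 lows read 0.236, 0.279, 0.236 and 0.236 with BPS and 0.410, 0.447, 0.402 and 0.409 without. The other lows read 0.356 with and 0.652 without BPS at RNR3, 0.269 with and 0.459 without at HUG1, and 0.713 and 0.597 at RAD54. Over the 567 such probes of the genome the median ratio was 0.393 with and 0.522 without BPS, and the median difference was −0.47. The RAD54 low, at 191.7 kb in CUP2, had −0.78 with and −1.02 without BPS. The cause of these lows was not tested.

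Shapes of the 2 tracks agreed unevenly. Across the probes of a window, which share the array design and lie side by side, Pearson's r between the arrays was 0.82 at RNR3 (31 probes), 0.71 at RNR2, 0.67 at HUG1, 0.49 at RAD54, 0.48 at RNR1, 0.38 at RNR4 and 0.12 at DUN1. The windows with the narrow lows of RNR3 and RNR2 had the highest values, and the flat floor of the DUN1 valley the lowest.

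For each gene the other genes with the most similar levels were sought over 6 values, the body and both flank means on each array. The closest of so many genes has a small difference by construction, so the matches are descriptive and no shared role was tested. ORC2, a subunit gene of the origin recognition complex, was closest to DUN1, with a root mean square difference of 0.07 against a median of 1.17 over 5755 genes. CDC7, the kinase gene that fires origins, was closest to RNR1 (0.04, median 0.60). RTG3 was closest to RNR3 (0.08), RNA1 to RNR2 (0.05), SHG1 to RNR4 (0.08), SNR41 to HUG1 (0.13) and SCL1 to RAD54 (0.07). The next 2 in each case were END3 and AKL1 for DUN1, PXA1 and NUP49 for RNR1, CDC39 and SPO13 for RNR3, GMH1 and YEH2 for RNR2, PKH3 and CTL1 for RNR4, SEC66 and COX5A for HUG1, and RPG1 and PTP3 for RAD54, at 0.05 to 0.14.

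Related gene lists give the setting of the 7 genes. Over all genes, 9.18% had a body difference below −0.5 and 10.6% above 0.5, with a median of −0.03. Of 14 checkpoint genes, 1 was below −0.5 and none above 0.5, with a median difference of −0.18. The lowest was CHK1, a checkpoint kinase gene, at −0.29 with and 0.31 without BPS (−0.60 ± 0.12), and the highest was DDC1, a subunit gene of the checkpoint clamp, at 0.29. MEC1 itself had −0.65 with and −0.66 without BPS over 26 probes. The strain is mec1 and the change at this locus is not known here, so these probes may not match its DNA. Of 18 recombination genes, 1 was above and none below, with a median of 0.03. RAD59, which anneals single strands, was highest at 0.54 with and −0.20 without BPS, and DNA2, a nuclease-helicase gene, lowest at −0.31. Of 15 other damage-induced or repair genes, 1 was above and 2 below, with a median of −0.18. DDR2 was highest at 1.15 on 1 probe, and RAD23, a nucleotide excision repair gene, lowest at −0.82.

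Of 15 genes of deoxynucleotide supply other than the RNR genes, 5 were above 0.5 and 3 below −0.5, against 10.6% and 9.18% of all genes, with a median of 0.23. Of these 8, YNK1, DUT1 and GRX1 rest on 1 probe each. YNK1, the nucleoside diphosphate kinase gene, had 1.15 with and −0.43 without BPS on 1 probe, a difference of 1.58. DCD1, the dCMP deaminase gene, differed by 1.02 ± 0.23, DUT1, the dUTPase gene, by 0.92 on 1 probe and CDC8, the thymidylate kinase gene, by 0.80 ± 0.11. RFX1, which encodes the repressor of the damage-induced RNR genes, was the lowest, at 0.16 with and 1.02 without BPS (−0.86 ± 0.11, 9 probes). Of 10 genes of iron delivery and cytosolic iron-sulfur assembly, 2 were above and 1 below, with a median of −0.02. GRX3, a glutaredoxin gene of iron sensing, had −0.24 with and −1.14 without BPS (0.91 ± 0.25), and DRE2, which takes part in cofactor assembly of Rnr2, had −0.45 and 0.10 (−0.55 ± 0.07).

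**Figure D5:**
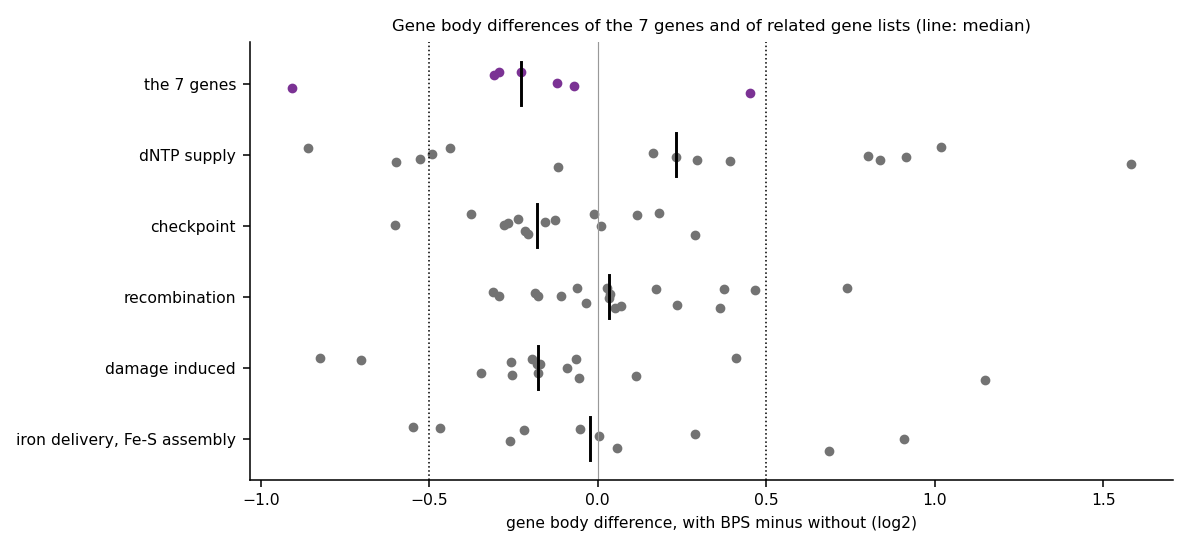
Gene body difference with BPS minus without BPS (x axis, log2) for each of the 7 genes and each member of 5 related lists (rows), with the list median as a line and the threshold of 0.5 dotted. The genes of deoxynucleotide supply spread from −0.86 to 1.58, while the 7 genes span −0.91 to 0.45.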

How the data were processed

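For each of 41480 probes, the deposited table holds a linear ratio from each array, and its name calls the data normalized. How they were normalized and which sample is the numerator is not given in the sources used here, and likewise the genome build. The submitters' processing notes name Agilent Feature Extraction 9.5.1. G1 DNA was in Cy5 and recovery DNA in Cy3, per the labels, with no dye swap, so dye bias remains in the levels. Scanner intensities were not used here. The ratio cannot show whether the total number of breaks differed.

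Log2 ratios, centred on each array's median, were averaged over the probes of each gene body and 3 kb flank, without a filter, in Python 3.11.15, and all genes with a probe gave the background. Gene names, strands and positions were taken from RefSeq (assembly R64). As a check of positions, 26 long Ty frames, which arrays leave bare, held 2 probes in place, 29 when moved 0.5 kb lower and 28 when moved 0.5 kb higher; only 2 of the chromosomes of the 7 genes had such frames. The script was tested on simulated data.

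Named were the 7 genes, neighbours within 3 kb, the 3 genes most alike, and the highest and lowest of each list. Other list members, narrow lows, averaged tracks and the first 1 kb upstream were added after the values were seen. The 7 genes and the lists were chosen with earlier results of these data known. A planned search for promoter motifs was not run, as no sequence was used here. Sharing of signal between probes of RNR1 and RNR3, which are similar in sequence, was not assessed. Alternatives were flank widths, medians, centring, scaling, quantile normalization, flank probes in no other gene, a threshold of 1 log2 unit and positions moved by 0.5 kb.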

Additional observations from a re-analysis of the deposited data

How the results depend on the processing

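With 1 array per condition, no alternative tests stability between cultures, and the counts of genes past the threshold are small enough to move with most settings. Gene bodies past the threshold with BPS (2 of 7) became 3 with medians over probes or no centring, 4 after scaling by robust SD, 4 with positions moved 0.5 kb higher and 1 at a threshold of 1 log2 unit; without BPS (2 of 7) positions 0.5 kb lower gave 3 and that threshold 0. RAD54 with BPS was 0.53, 0.75, 0.51 and 0.57 with medians, no centring, robust SD and positions 0.5 kb higher. Body differences past the threshold (1, HUG1) became 2 after that scaling, and 0 with positions 0.5 kb lower, 0.5 kb higher or at 1 log2 unit; differences over body and flanks (0) became 1 after the scaling. Body minus upstream flank with BPS (2) gave 1 with flanks of 5 kb, with medians over probes, with positions 0.5 kb lower and with flank probes in no other gene, and 0 at 1 log2 unit or without the narrow lows, an alternative chosen after seeing the data. With flanks of 1.5 kb it was again 2, but DUN1 (0.52) passed and RNR3 (−0.33) did not. Without BPS (2) it gave 1 with medians, with either move of positions and without the narrow lows, and 0 at 1 log2 unit. Body minus downstream flank with BPS (1, RNR4) gave 0 with flanks of 1.5 kb, medians, positions 0.5 kb lower and 1 log2 unit, and 2 with flanks of 5 kb. Of single values past the threshold, 1 changed sign: HUG1 minus its upstream flank without BPS was −0.23 with positions 0.5 kb lower. In each case the alternative takes other probes, another summary or another scale, and the cause was not tested further. HUG1 and RAD54 were lower with BPS over body and flanks under every alternative run, from −0.49 to −0.32 and from −0.55 to −0.31. No paired analysis was possible because each condition had 1 array and the labels carry no replicate numbers.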
